A study of Mus musculus with 6 samples.

Results

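The genes described here encode interleukin-2 (IL-2), the chains of its receptor, and the kinases and transcription factors that carry the signal: Il2, Il2ra, Il2rb, Il2rg, Jak1, Jak3, Stat5a and Stat5b. They were chosen by gene symbol from a deposited table of 14868 genes, and all 8 had a row and passed the filter on low values. The cells were CD4+ T cells on a C57BL/6J background, taken as naïve cells from wild-type (WT) mice or from Ikzf4-/- mice. The latter are labelled as a knockout of Ikzf4, the gene of Eos, a zinc finger protein of the Ikaros family. Each genotype gave 3 libraries of total RNA. Every culture in both genotypes received 10 µg/mL of anti-Ifng antibody and 10 ng/mL of IL-4, which drive differentiation into T helper 2 (Th2) cells, and was stimulated for 72 h by plate-bound anti-CD3 at 5 µg/mL and anti-CD28 at 2 µg/mL. How the Ikzf4 allele was made, the age and sex of the mice, and whether the replicates came from separate animals are not given in the sources used here, so p-values measure the spread between these libraries, which may be technical.

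IL-2 is made by activated T cells and acts back on them and on their neighbours. The alpha chain (CD25, from Il2ra) raises the affinity of the receptor for IL-2, while the beta chain (CD122, from Il2rb) and the common gamma chain (CD132, from Il2rg) carry the signal into the cell. The kinase JAK1 binds the beta chain and JAK3 binds the gamma chain, and together they lead to phosphorylation of STAT5A and STAT5B, which then act as transcription factors. STAT5 raises Il2ra transcription and restrains Il2 transcription, and in Th2 cells it acts at the Il4 locus and at Il4ra. The gamma chain, JAK1 and JAK3 also serve the IL-4 receptor.

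The ligand and the alpha chain are the members with the highest and the lowest fitted fold change, so the 250 bases before the RefSeq start of each are shown, on the gene's own strand from 5′ to 3′. The Il2 stretch is chr3:37125955-37126204 on the minus strand and the Il2ra stretch is chr2:11642542-11642791 on the plus strand, both on GRCm38. Capitals mark GGAAA, the core bound by NFAT factors, and GGGAA, the core bound by Ikaros-family proteins, on either strand.
Il2: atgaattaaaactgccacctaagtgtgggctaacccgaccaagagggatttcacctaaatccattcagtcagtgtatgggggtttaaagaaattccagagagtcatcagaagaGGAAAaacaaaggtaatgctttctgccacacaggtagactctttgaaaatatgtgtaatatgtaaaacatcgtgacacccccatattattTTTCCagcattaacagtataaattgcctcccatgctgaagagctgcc
Il2ra: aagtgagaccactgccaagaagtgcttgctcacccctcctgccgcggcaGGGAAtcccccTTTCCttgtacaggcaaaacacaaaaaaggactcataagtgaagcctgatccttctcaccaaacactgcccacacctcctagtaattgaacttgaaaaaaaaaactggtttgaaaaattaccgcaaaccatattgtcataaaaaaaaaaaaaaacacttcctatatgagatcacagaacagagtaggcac

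The Il2 stretch holds GGAAA starting 137 bases before the start and its reverse complement TTTCC starting 47 bases before it. The Il2ra stretch holds GGGAA starting 201 bases before the start and TTTCC starting 190 bases before it. These letters are common: of 32851 RefSeq windows of 250 bases before to 50 bases after a start, 61.3% held GGAAA and 62.7% held GGGAA on either strand. Windows were found for 7 of the 8 members, 9 windows in all, with no entry for Il2rb. None of the 9 held the STAT5 motif TTCNNNGAA, which 8.3% of all windows held. A match is a description of the letters, and its absence concerns this window only.

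Facts of the whole series that bear on these values are few. Read as reads divided by 1 size factor per library, the deposited values implied 34701390 to 40604346 reads per library. Ikzf4 had a normalized read count of 483 to 756 in WT libraries and of 10.5 to 38.2 in Ikzf4-/- libraries, so each library matched its label. WT replicate 1 stood apart on the first principal component (40.2% of the variance), at -41.3 against -12.5 and -5.3 in the other WT libraries and 11.1 to 30.8 in the Ikzf4-/- libraries. Of 14864 genes tested with limma, 1.77% were called at a Benjamini-Hochberg adjusted p under 0.05, and for 23.1% the WT and Ikzf4-/- values did not overlap.

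In Ikzf4-/- cells, Il2rb was lower. Il2ra and Jak3 lay lower and Il2 lay higher in each Ikzf4-/- library than in each WT library. Il2ra, Jak3 and Il2 did not reach the threshold in the fit with genotype as the only term. Il2rg, Jak1, Stat5a and Stat5b overlapped between the genotypes. Thus 1 of the 8 members was called, Il2rb, against a background of 1.77%. The groups did not overlap for 4 of the 8, 1 higher and 3 lower, against 23.1% of all genes. An unadjusted limma p under 0.05 was found for the same 4 members, and for 18.1% of all genes tested. The members were chosen with earlier results of these data known, so these shares are not an independent comparison. RNA was taken from whole cultures, so fewer cells expressing a gene and less RNA per cell cannot be told apart.

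**Figure D1:**
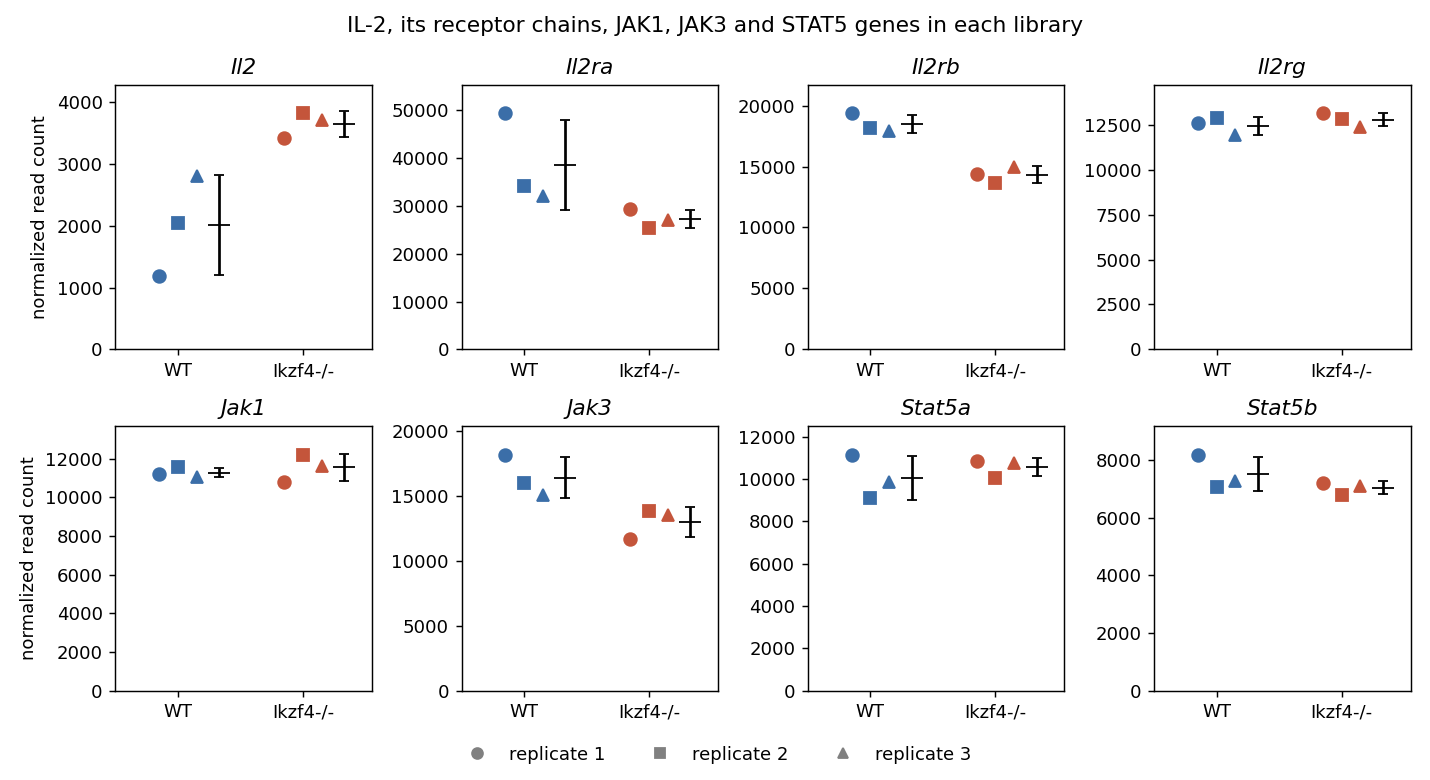
Normalized read count (vertical axes, from 0) of each of the 8 genes in the 3 WT libraries (blue) and the 3 Ikzf4-/- libraries (red), with the symbol giving the replicate number and black bars the mean ± SD. Il2rb, Il2ra, Jak3 and Il2 do not overlap between genotypes, and WT replicate 1 is the highest library for Il2ra, at 49294, and the lowest for Il2, at 1189.

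The ligand gene Il2 (ENSMUSG00000027720, chromosome 3, 37120523 to 37125959, minus strand, GRCm38) had normalized read counts of 1189, 2040 and 2798 in WT (replicates 1, 2 and 3, the order used throughout) and 3418, 3818 and 3706 in Ikzf4-/- libraries. Every Ikzf4-/- library was above every WT library, and the WT libraries differed more among themselves than the Ikzf4-/- libraries did. The mean was 2009 ± 805 (SD, n = 3) in WT and 3647 ± 207 (SD, n = 3) in Ikzf4-/- cells. The fitted log2 fold change was 0.94 (95% interval 0.44 to 1.44), a 1.92-fold higher level, with a limma adjusted p of 0.0621. The authors' deposited table gave 0.86 with an adjusted p of 0.113. WT replicate 1 weighed on the size: without it the log2 fold change was 0.61 and the adjusted p 0.0106, and without WT replicate 3 the adjusted p was 0.0107. The other 4 fits that left out 1 library gave adjusted p-values up to 0.189.

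Il2ra (ENSMUSG00000026770, chromosome 2, 11642807 to 11693193, plus strand), the alpha chain gene, had normalized read counts of 49294, 34168 and 32098 in WT and 29286, 25432 and 27054 in Ikzf4-/- libraries. The groups did not overlap, and WT replicate 1 was far above the other WT libraries. The mean was 38520 ± 9388 (SD, n = 3) in WT and 27257 ± 1935 (SD, n = 3) in Ikzf4-/- cells, a log2 fold change of -0.47 (95% interval -0.76 to -0.19; limma adjusted p = 0.0869). Without WT replicate 1 the log2 fold change was -0.28, a smaller difference, yet it was called (adjusted p = 0.0308), as it was without WT replicate 3 (0.0317). The adjusted p in the authors' deposited table was 0.159.

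The beta chain gene Il2rb (ENSMUSG00000068227, chromosome 15, 78479256 to 78495271, minus strand) had normalized read counts of 19367, 18169 and 17924 in WT and 14368, 13649 and 14985 in Ikzf4-/- libraries. Values within each genotype were close, and the lowest WT library was well above the highest Ikzf4-/- library. Mean Il2rb was 18487 ± 772 in WT and fell to 14334 ± 669 in Ikzf4-/- cells (SD, n = 3 each), or 0.775 times the WT level. The fitted log2 change was -0.37 (95% interval -0.48 to -0.26; limma adjusted p = 0.0129). Its log2 fold change ran from -0.40 to -0.33 over the 6 fits that each left out 1 library, and the largest adjusted p of those was 0.0471. The authors' deposited table had an adjusted p of 5.72e-08 for Il2rb.

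Il2rb is also abundant in natural killer (NK) cells and memory CD8 T cells. Of 7 NK markers, 5 had a row, and their summed normalized read counts were 1151 to 2991 in WT and 891 to 1946 in Ikzf4-/- libraries, with none called. Most of this sum came from Prf1 at 497 to 1717, Gzma at 194 to 963 and Eomes at 149 to 299 over the 6 libraries. The receptor genes Klrd1 and Klrk1 were low, at 12.1 to 38.6 and 20.2 to 67.4. The defining NK genes Ncr1 and Klrb1c were not analysed here, as no row held them. All 5 NK genes with a row had a fitted log2 fold change below 0, with a median of -0.47 against 0.00 for all genes tested. The 2 CD8 genes, Cd8a and Cd8b1, summed to 236 to 423 in WT and 232 to 374 in Ikzf4-/- libraries. Cd4 alone was at 25135 to 28266 over the 6 libraries. Cd8b1 varied little, from 179 to 215. Cd8a was at 57.5, 140 and 208 in WT and 33.3, 58.6 and 161 in Ikzf4-/- libraries (log2 fold change -0.79, limma adjusted p = 0.489). The part of such cells in the Il2rb difference was not tested. Of the other markers, none of the 5 myeloid genes and 2 of the 4 B cell genes had a row, and the B cell sum was at most 90.4. All 6 T cell genes had a row, and 1 was called, where 1.77% of all genes tested were called. This was Cd5, which was higher in Ikzf4-/- cells (log2 fold change 0.33, limma adjusted p = 0.0306). All 4 Th2 genes had a row, and 2 were called lower, Il4 and Il13, against 1.20% of all genes tested. The median log2 fold change of the Th2 genes was -0.84, against 0.00 for all genes tested. For 3 of the 4 each Ikzf4-/- library was below each WT library, against 12.2% of all genes. The part of this Th2 difference in the results for the members was not tested. Of 3 T helper 1 genes, Tbx21, Ifng and Cxcr3, none was called, and the groups overlapped for each. Ifng was at 999, 2778 and 2561 in WT and 1638, 1591 and 2518 in Ikzf4-/- libraries. Tbx21 was at 395, 804 and 744 in WT and 453, 415 and 651 in Ikzf4-/- libraries. WT replicate 1 was the lowest library for both. None of the 3 markers of regulatory T cells (Treg), which are rich in Il2ra, was called. Foxp3, the lineage factor of these cells, was at 36.2, 97 and 42.7 in WT and 43.4, 31.4 and 48.2 in Ikzf4-/- libraries. Ctla4 was at 4584, 2652 and 2350 in WT and 2417, 2193 and 1777 in Ikzf4-/- libraries. Its groups overlapped, and WT replicate 1 was its highest library, as for Il2ra. Ikzf2 was at 44.7, 169 and 96.1 in WT and 79.7, 96.3 and 162 in Ikzf4-/- libraries. Fitted log2 changes were -0.39 for Foxp3, -0.53 for Ctla4 and 0.25 for Ikzf2. Whether Treg account for part of the Il2ra difference was not tested.

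Il2rg (ENSMUSG00000031304, chromosome X, 101264378 to 101268255, minus strand), the gamma chain gene, had normalized read counts of 12575, 12871 and 11911 in WT and 13143, 12840 and 12403 in Ikzf4-/- libraries. The libraries of the genotypes were interleaved. The log2 fold change was 0.04, and its 95% interval of -0.06 to 0.14 did not reach the size seen for Il2rb in either direction (limma adjusted p = 0.709). The annotation places another gene model, Gm20489, over 30.5% of the Il2rg exon bases on the same strand; it had no row, and how reads shared by both were counted is not given in the sources used here.

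**Figure D2:**
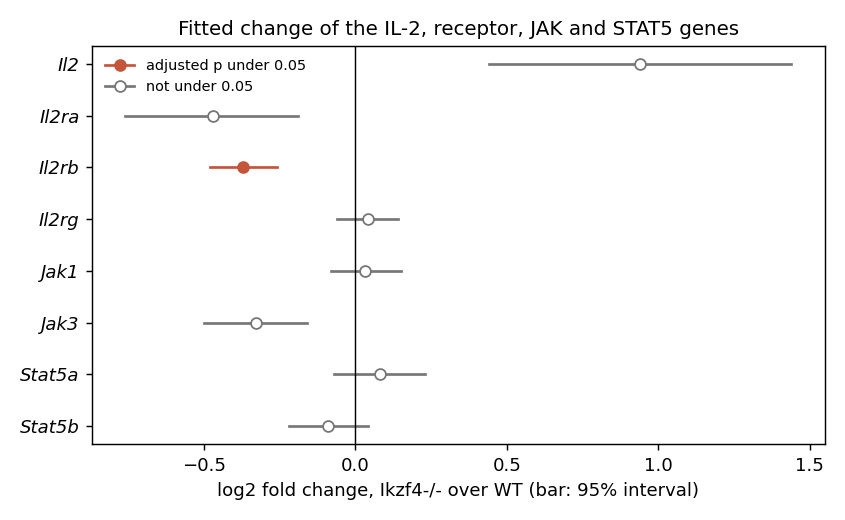
Fitted log2 fold change of each of the 8 genes (horizontal axis, Ikzf4-/- over WT) with its 95% interval from limma, filled red where the adjusted p was under 0.05. Il2rb is the called gene, at -0.37, Il2 lies at 0.94, and the intervals of Il2rg, Jak1, Stat5a and Stat5b include 0.

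Of the kinase genes, Jak3 (ENSMUSG00000031805, chromosome 8, 71676296 to 71690575, plus strand) had normalized read counts of 18172, 15998 and 15028 in WT and 11701, 13849 and 13482 in Ikzf4-/- libraries. All Ikzf4-/- libraries were below all WT libraries. The mean was 16399 ± 1610 (SD, n = 3) in WT and 13010 ± 1149 (SD, n = 3) in Ikzf4-/- cells, a log2 fold change of -0.33 (95% interval -0.50 to -0.16; limma adjusted p = 0.0588). The authors' deposited table also had -0.33 for Jak3, with an adjusted p of 0.000849, so that table counted Jak3 among its changed genes, which made up 6.34% of the 12849 genes with an adjusted p. The Jak3 transcript has a GC content of 61.1%, the highest of the 8, and once library trends with GC content and with transcript length were taken out, its log2 fold change was -0.19 (limma adjusted p = 0.206). Without WT replicate 3 it was called (0.0273). Insl3 shares 404 exon bases with Jak3 on the same strand, 7.5% of the Jak3 exon bases, and was at 295 ± 26.6 (SD, n = 3) in WT and 264 ± 23.5 (SD, n = 3) in Ikzf4-/- cells.

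Jak1 (ENSMUSG00000028530, chromosome 4, 101152367 to 101265282, minus strand), which partners the beta chain, had normalized read counts of 11232, 11550 and 11055 in WT and 10796, 12215 and 11643 in Ikzf4-/- libraries. The Ikzf4-/- libraries spanned the whole WT range. Its log2 fold change was 0.03 (95% interval -0.08 to 0.15; limma adjusted p = 0.791).

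The STAT5 genes lie 8626 bp apart on chromosome 11, Stat5a (ENSMUSG00000004043) at 100859351 to 100885169 on the plus strand and Stat5b (ENSMUSG00000020919) at 100780731 to 100850724 on the minus strand. They encode closely related proteins, and how reads that match both genes were counted is not given in the sources used here. Stat5a had normalized read counts of 11150, 9108 and 9857 in WT and 10829, 10050 and 10760 in Ikzf4-/- libraries. The Ikzf4-/- values lay within the WT range, with a log2 fold change of 0.08 (95% interval -0.07 to 0.23; limma adjusted p = 0.612). Stat5b had 8201, 7086 and 7272 in WT and 7223, 6802 and 7122 in Ikzf4-/- libraries. These groups overlapped too, with a log2 fold change of -0.09 (95% interval -0.22 to 0.04; limma adjusted p = 0.458). Stat5a shares 72 exon bases with Stat3 on the opposite strand, 1% of its exon bases.

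Levels of different genes were compared per kb of exons, as normalized reads per kb. In WT cells Il2ra was highest at 6745 ± 1644 (SD, n = 3), then Il2rg at 5217 ± 206, Il2rb at 4312 ± 180 and Jak3 at 3064 ± 301 (SD, n = 3 each), and the library ranges of these neighbours did not overlap. Il2 at 1756 ± 704, Jak1 at 1561 ± 34.7, Stat5a at 1407 ± 145 and Stat5b at 1358 ± 108 (SD, n = 3 each) followed, and each overlapped the next. All receptor chains were thus above both STAT5 genes per kb, and Jak3 was above Jak1. Gm20489 covers 30.5% of the Il2rg exon bases, and how shared reads were counted is not given in the sources used here. The level of Il2rg per kb, and so its place relative to Il2ra in either genotype, is therefore uncertain.

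In Ikzf4-/- cells the order at the top differed. Il2rg was highest at 5361 ± 156 normalized reads per kb, above Il2ra at 4773 ± 339 (SD, n = 3 each), without overlap. Il2rb at 3344 ± 156 overlapped Il2 at 3188 ± 181 (SD, n = 3 each), which was above Jak3 at 2431 ± 215 (SD, n = 3). Jak1, Stat5a and Stat5b kept the lowest positions, at 1598 ± 98.8, 1479 ± 60.5 and 1273 ± 39.7 (SD, n = 3 each). With the length of the longest coding transcript in place of all exons, Il2ra stayed first in WT and Il2rg first in Ikzf4-/- cells. That length moved Stat5a to position 5 and Il2 to position 7 in WT. In Ikzf4-/- cells it turned the order of Il2 and Jak3, with Jak3 at 3237 and Il2 at 3188 normalized reads per kb, and that of Jak1 and Stat5a, with Stat5a at 2713 and Jak1 at 2355.

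**Figure D3:**
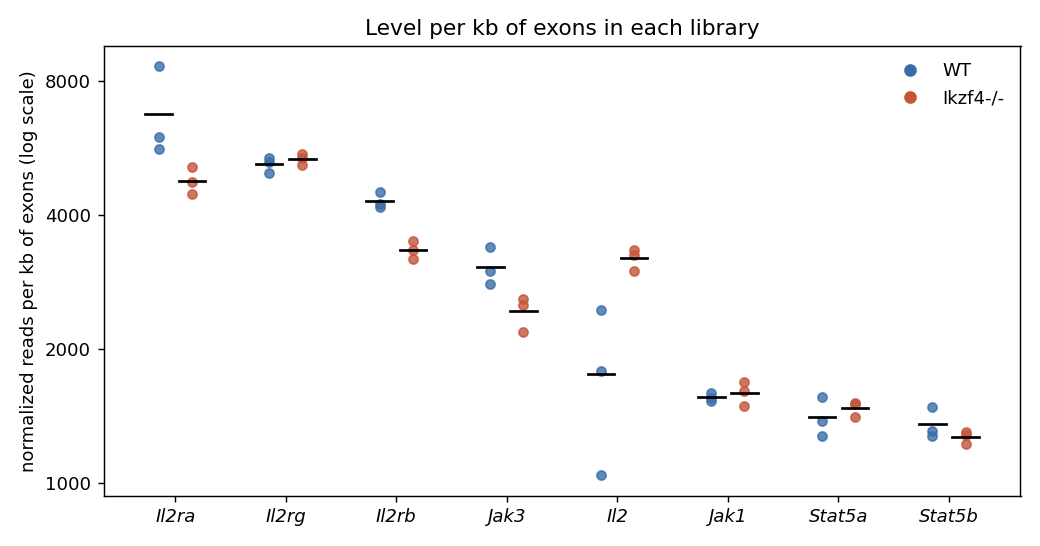
Normalized reads per kb of exons (vertical axis, log scale) of each gene in the 3 WT (blue) and 3 Ikzf4-/- (red) libraries, with black bars at the means, ordered by the WT mean. Il2ra is above Il2rg in all WT libraries and below it in all Ikzf4-/- libraries, and Il2 approaches Il2rb in the Ikzf4-/- libraries. The level of Il2rg is uncertain, as the counting of reads shared with Gm20489 is not given.

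Ratios of partner genes within the same library asked whether members of one role differed in their change. Each of 5 ratios was tested by an exact two-sided permutation test, in which 3 against 3 libraries cannot go below p = 0.1, and p-values were adjusted over the 5 ratios. The log2 ratio of Il2ra to Il2rg was 1.60 ± 0.32 (SD, n = 3) in WT and 1.09 ± 0.09 (SD, n = 3) in Ikzf4-/- libraries, without overlap (exact p = 0.1, adjusted 0.125). The log2 ratio of Il2rb to Il2rg was 0.57 ± 0.07 in WT and 0.16 ± 0.10 in Ikzf4-/- libraries (SD, n = 3 each; exact p = 0.1, adjusted 0.125). Relative to the gamma chain gene, both other chain genes therefore lay lower in every Ikzf4-/- library than in every WT library.

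The alpha and beta chain genes did not separate from each other. The log2 ratio of Il2ra to Il2rb was 1.03 ± 0.27 in WT and 0.93 ± 0.09 in Ikzf4-/- libraries (SD, n = 3 each; exact p = 0.7, adjusted 0.7), and its difference of -0.11 became 0.05 without WT replicate 1. The log2 ratio of Jak1 to Jak3 was -0.54 ± 0.14 in WT and -0.17 ± 0.05 in Ikzf4-/- libraries, and that of Stat5a to Stat5b was 0.41 ± 0.05 and 0.58 ± 0.02 (SD, n = 3 each; exact p = 0.1 and adjusted 0.125 for both). Neither of these overlapped. The Stat5a to Stat5b ratio thus did not overlap between the genotypes although each gene alone did, with a difference of 0.17 on the log2 scale. How often ratios of other gene pairs do not overlap was not tested.

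**Figure D4:**
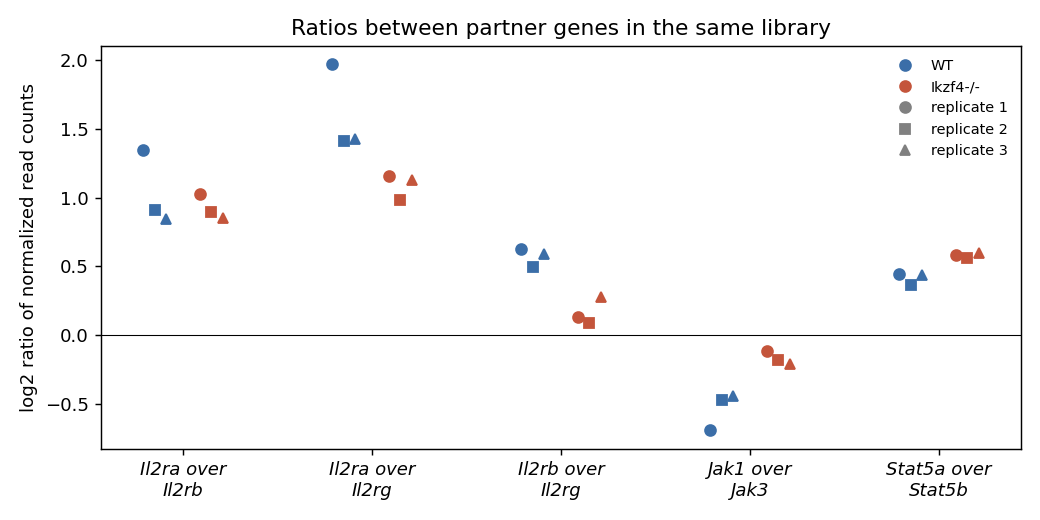
Log2 ratio of normalized read counts of partner genes in each library (vertical axis), WT in blue and Ikzf4-/- in red, with the symbol giving the replicate number. The genotypes do not overlap for 4 of the 5 ratios, and overlap for Il2ra over Il2rb, where WT replicate 1 is highest at 1.35.

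Genes further along the pathway were read from 7 lists of 70 genes in all, of which 68 had a row. Of these, 17 were called, 16 lower and 1 higher in Ikzf4-/- cells, against 1.20% of all genes lower and 0.572% higher. The lists were chosen with earlier results of these data known, so setting them against shares of all genes is not an independent comparison. When libraries were left out 1 at a time, Osm alone of the 17 stayed called throughout, and 13 were called in at most 3 of 6 such fits. Of the 17 STAT5 target genes, 9 were called lower and 0 higher, and their median log2 fold change was -0.40 against 0.00 for all genes tested. The groups did not overlap, with Ikzf4-/- lower, for 12 of the 17, against 12.2% of all genes. The count depended on single libraries: without Ikzf4-/- replicate 3 it was 1, without Ikzf4-/- replicate 1 or 2 it was 2, without WT replicate 2 it was 5, and after the GC content and length correction it was 5.

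Among the STAT5 targets, the kinase gene Pim2, which promotes survival and growth, had normalized read counts of 3970, 3002 and 3042 in WT and 2334, 2130 and 2210 in Ikzf4-/- libraries (log2 fold change -0.57, limma adjusted p = 0.0237). All Ikzf4-/- libraries were below all WT libraries. Nfil3, which encodes a basic leucine zipper factor, had 5378, 3971 and 3545 in WT and 2533, 2870 and 2526 in Ikzf4-/- libraries (log2 fold change -0.68, limma adjusted p = 0.0292). WT replicate 1 was the highest library for both. Of the survival genes, Bcl2 fell by 0.45 on the log2 scale (limma adjusted p = 0.0303), whereas Bcl2l1, which encodes BCL-XL, had 0.03 (0.874) and Mcl1 -0.08 (0.406). Of the D cyclins, Ccnd3 fell by 0.28 on the log2 scale (limma adjusted p = 0.0303), and Ccnd2 had a log2 fold change of -0.06 (0.56). The cytokine gene Osm was at 878, 717 and 774 in WT and 486, 460 and 516 in Ikzf4-/- libraries, with every Ikzf4-/- library below the WT range (log2 fold change -0.69, limma adjusted p = 0.0131).

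Of the 11 feedback and phosphatase genes, 3 were called, all lower: Socs1, Socs2 and Socs3, whose products inhibit JAK signalling, with a list median of -0.09, where 1.20% of all genes tested were called lower. The count was 0 without WT replicate 2, Ikzf4-/- replicate 1 or Ikzf4-/- replicate 2, and 1 without Ikzf4-/- replicate 3. Cish, an early STAT5 target that inhibits the pathway, had normalized read counts of 16957, 16910 and 15955 in WT and 16497, 15071 and 15214 in Ikzf4-/- libraries. Its groups overlapped, with a log2 fold change of -0.09 (95% interval -0.20 to 0.02; limma adjusted p = 0.359). The phosphatase genes Ptpn1, Ptpn2, Ptpn6 and Ptpn11 had log2 fold changes of -0.20, -0.13, -0.02 and 0.13, none called.

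**Figure D5:**
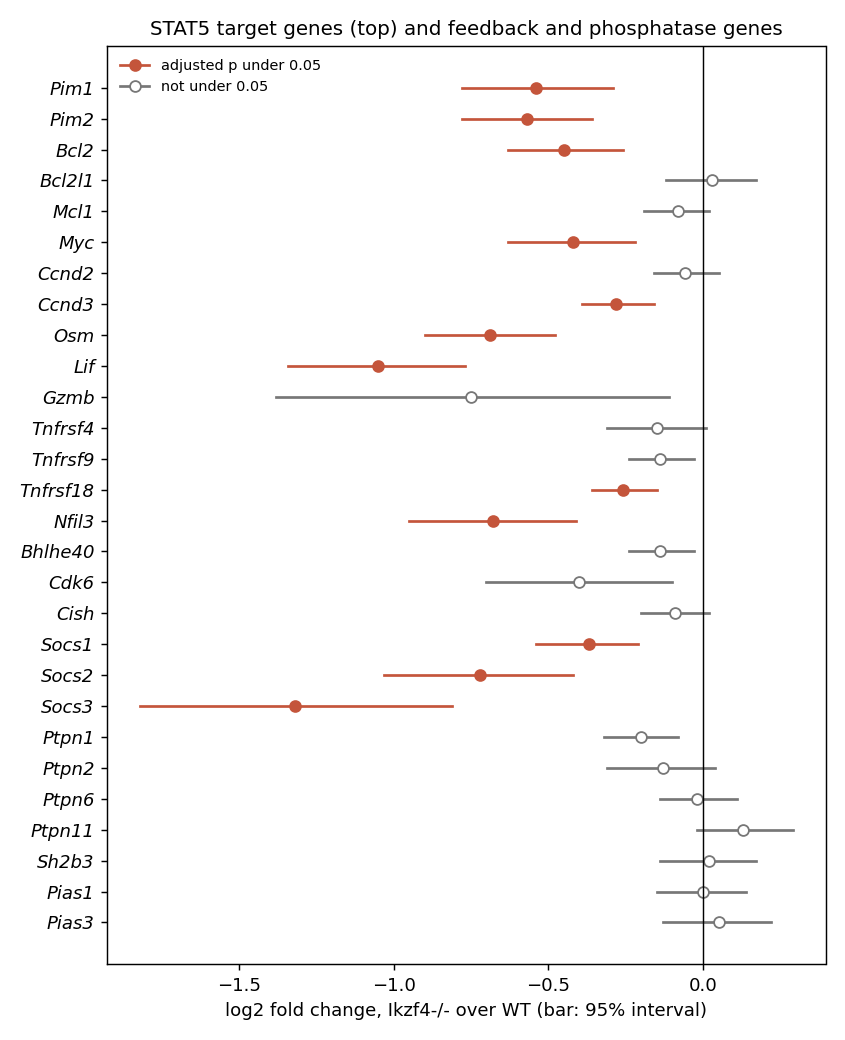
Fitted log2 fold change (horizontal axis, Ikzf4-/- over WT) with its 95% interval from limma for the 17 STAT5 target genes, from Pim1 to Cdk6, and the 11 feedback and phosphatase genes, from Cish to Pias3. Filled red points had an adjusted p under 0.05, and all 12 of them lie below 0.

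Of 5 genes of receptors that share the gamma chain, 1 was called, where 1.77% of all genes tested were called. This was Il4ra, the specific chain of the IL-4 receptor, with normalized read counts of 19694, 12253 and 11002 in WT and 9169, 7333 and 7467 in Ikzf4-/- libraries (log2 fold change -0.80, limma adjusted p = 0.0476; 0.06 in the authors' deposited table). WT replicate 1 was again the highest library. The call of Il4ra was lost after the GC content and length correction (adjusted p = 0.0629), and in 4 of 6 fits with 1 library removed: those without WT replicate 2 (0.0749) and without Ikzf4-/- replicate 1, 2 or 3 (0.082, 0.153 and 0.164). Il7r, Il9r, Il15ra and Il21r had log2 fold changes of -0.20, -0.55, 0.11 and -0.01. Per kb of exons, Il4ra was at 2385 ± 783 and Il21r at 1450 ± 151 normalized reads in WT (SD, n = 3 each), both below all 3 chains of the IL-2 receptor.

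Of the other JAK and STAT genes, 1 of 7 was called, where 1.77% of all genes tested were called. This was Stat3, with normalized read counts of 11394, 9924 and 9742 in WT and 8021, 8851 and 8128 in Ikzf4-/- libraries (log2 fold change -0.31, limma adjusted p = 0.0436). After the GC content and length correction its adjusted p was 0.0722, and it was called in 2 of 6 fits with 1 library removed, with an adjusted p of up to 0.155. Stat6, which carries the IL-4 signal, was not called, at a log2 fold change of 0.09 and an adjusted p of 0.397 by limma. Jak2 was the most abundant JAK gene per kb of exons, at 9780 ± 841 normalized reads per kb in WT and 9723 in Ikzf4-/- cells, with a log2 fold change of -0.00. The branch to RAS and PI3K had 1 of 13 genes called, against the same share of 1.77%. This was Mapk3, which encodes the kinase ERK1, at 1706, 1578 and 1613 in WT and 1101, 1302 and 1125 in Ikzf4-/- libraries. Its log2 fold change was -0.48 (limma adjusted p = 0.0198). The adjusted p was 0.063 without Ikzf4-/- replicate 1 and 0.0875 without Ikzf4-/- replicate 3.

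Of the 3 gamma chain ligands with a row, Il4 was called lower, where 1.20% of all genes tested were called lower. Its log2 fold change was -0.87 (limma adjusted p = 0.0144, and 0.0571 without Ikzf4-/- replicate 3). Of the 12 regulators of Il2 transcription, only Rel was called. It was higher in Ikzf4-/- cells, where 0.572% of all genes tested were called higher. Rel encodes c-Rel, an NF-κB subunit that activates Il2. Its normalized read counts were 2951, 3991 and 4106 in WT and 5441, 5249 and 5736 in Ikzf4-/- libraries (log2 fold change 0.59, limma adjusted p = 0.0281). As for Il2, WT replicate 1 was the lowest library and the groups did not overlap. Without Ikzf4-/- replicate 3 the adjusted p of Rel was 0.111, and it was called in 3 of the 6 fits that left out 1 library. Prdm1, which encodes the Il2 repressor Blimp-1, had 108, 84.5 and 77.6 in WT and 30.3, 54.4 and 40.2 in Ikzf4-/- libraries, without overlap (log2 fold change -1.12, limma adjusted p = 0.0588). Nfatc1, Nfatc2, Fos and Jun were not called, with log2 fold changes of 0.18, 0.02, 0.15 and 0.13. Ikzf1, Ikzf3 and Zeb1 had 0.17, 0.27 and 0.15, and Rela, Cd28 and Crem had -0.07, -0.10 and -0.15, none called. Fitted changes were below 0 for 4 of the 12 regulators. Without overlap, 3 were higher in Ikzf4-/- libraries (Rel, Nfatc1 and Ikzf1) and 2 were lower (Prdm1 and Rela). Whether any of these regulators contributes to the Il2 difference was not tested.

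The genes whose pattern over the 6 libraries was most like that of Il2, Il2ra and Il2rb were found by the root mean square difference of centred log2 values among 10558 genes with a mean of at least 100. For Il2 these were Lrp4, Sulf2 and Psrc1, with differences of 0.121, 0.124 and 0.135. For Il2ra they were Pla2g12a, Sox12 and Dennd5a, with differences of 0.045, 0.055 and 0.055. For Il2rb they were Clic4, Sh3bp1 and Ndrg3, with differences of 0.026, 0.028 and 0.031. Being picked by pattern, the genes nearest to Il2ra share its high WT replicate 1 by selection. Pla2g12a, for example, was at 2106 there against 1467 and 1345 in the other WT libraries and 1107 to 1159 in the Ikzf4-/- libraries.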

How the data were processed

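Total RNA of 3 WT and 3 Ikzf4-/- Th2 cultures was sequenced. Trimmomatic 0.36, STAR 2.5.2b and DESeq2 were used with GRCm38 (mm10), per the submitters' processing notes; how reads were counted, and whether strand was used, is not given in the sources used here. The deposited sample columns hold a signal read as normalized read counts, because 100% of values in each library were whole multiples (within 0.01) of 1 step per library. The authors' log2 fold changes and their p-values stand in the same deposited table, with no adjusted p for 2019 genes. No count test was run, since for 2 Ikzf4-/- libraries (1 and 3) the step was so close to 1 that the rule applied here does not accept the reads as recovered.

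Values were fitted as log2(value + 1) with limma 3.58.1 in R 4.3.3, with genotype as the only term and a variance trend, for 14864 genes with a mean of at least 10 (4 left out). P-values are two-sided and Benjamini-Hochberg adjusted over all genes tested, and called means an adjusted p under 0.05. The added 1 makes fold changes of genes with low values too small. The fit was tested on simulated data. Exon lengths, positions and GC content come from GENCODE M21 on GRCm38 (14831 genes matched), and promoters from RefSeq on GRCm38.p6. Named genes were the 8 members, Ikzf4, members of the pathway and marker lists, and the 3 genes most like Il2, Il2ra and Il2rb; overlapping genes were added after their values were seen. Members and lists were chosen with earlier results of these data known. Alternatives were 3 other scalings, 2 filters, 2 pseudocounts, a replicate block, array weights, a GC content and length correction, leaving out each library, and the authors' calls.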

Additional observations from a re-analysis of the deposited data

How the results depend on the processing

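No called direction of a member or list gene reversed under the alternatives that were run, and Il2rb was called in each of them. Other scalings, filters and pseudocounts gave 256 to 283 called genes against 263, with 1 member called. Array weights gave 482 genes and 3 members, adding Il2 (0.0246) and Jak3 (0.0393), and the authors' deposited table gave 815 genes and 2 members. The GC content and length correction called 10 list genes against 17. Leaving out each library gave 20 to 523 called genes, 1 to 4 members and 2 to 19 list genes; 5 libraries lower the power, and the cause of the rises was not tested. The lowest counts of genes and list genes came without Ikzf4-/- replicate 3, and 4 members were called without WT replicate 3. The difference in the log2 ratio of Il2ra to Il2rb ran from -0.20 to 0.05, reversing without WT replicate 1 (0.05). With the longest coding transcript, 6 of the 8 members had the same position by level per kb in WT and 4 of the 8 in Ikzf4-/- cells.

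With the replicate block, 754 genes and 4 members were called (Il2 0.0116, Il2ra 0.0126, Il2rb 0.00513, Jak3 0.0481). Deviations of libraries with the same number correlated across genes at 0.145, 0.0122 and 0.142. The second pair was weak, and WT replicate 2 correlated more with Ikzf4-/- replicate 3 (0.0491). No cutoff for accepting a pairing was set. The replicate numbers are not stated to pair libraries, so the block was kept as an alternative. The lowest value of any member in any library was a normalized read count of 1189.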
